A study of Gallus gallus with 6 samples.

Results

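The 2 libraries described here profile an active and a repressive histone mark in the same FGF2-treated tissue, and the question is where in the chick genome the H3K27ac and H3K27me3 peaks lie relative to each other. The members are all Homer peaks of these libraries, taken by their sample labels: 37405 H3K27ac and 32518 H3K27me3 peaks, together 69923 of the 123475 Homer peaks of the whole series. Posterior pre-placodal ectoderm, from which otic-epibranchial progenitors (OEPs) arise, was dissected from HH6 chick embryos and kept as explants in DMEM for 6 h with 0.25 ng/µl FGF2 (+FGF2). The control explants (Cnt), which enter only where values are set side by side, spent 6 h in the same medium without FGF2. About 100 tissues were pooled per condition and nano-ChIP-seq, a protocol for few cells with an extra amplification step, gave 1 library per condition and mark. In the source label the +FGF2 H3K27me3 sample carries "FGF3", while its title and its culture condition give FGF2, and the title was followed. Because the tissue was pooled, 2 marks called over the same bases need not come from the same cell, allele or nucleosome. There are no replicates, so no test was made, and the intervals given are 95% Wilson intervals that cover counting error only and treat peaks or bins as independent.

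H3K27ac is placed by acetyltransferases such as p300 and CBP and marks active enhancers and promoters. H3K27me3 is placed by the Polycomb repressive complex PRC2 and marks silenced developmental genes, often over broad stretches. Both modifications sit on the same lysine of histone H3, so a single histone tail can carry only one of them at a time, and their exchange is known as a step in switching developmental genes on or off.

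To show the kind of sequence the peaks are set beside, the primers that bound 3 elements cloned in the study are given 5′ to 3′, in lower case throughout because no base is singled out. In the galGal4 genome, Spry1 E is chr4:52768022-52768515, Foxi3 E2 is chr4:85611260-85611770 and Hesx1 E is chr12:8576366-8576880. They were chosen because they range from H3K27ac over the element to H3K27me3 farthest away.
Spry1 E forward: acgcctctctaccctcttt
Spry1 E reverse: gctggaagctagagccatatc
Foxi3 E2 forward: tttggccctgttcaaatgg
Foxi3 E2 reverse: cagtttgttgataccttcagtgt
Hesx1 E forward: caactgctttctataatgtgtaccag
Hesx1 E reverse: gcgtttgattatcgtgctgtc

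On chromosomes 1 to 28 and Z, which hold 95.8% of the H3K27ac and 92.8% of the H3K27me3 peaks, both marks were spread widely. Nearly all Homer peaks span 751 bp (98.9% of the H3K27ac and 97.8% of the H3K27me3 peaks). The others are shorter, down to 364 and 243 bp, apart from the last H3K27ac entry, on chromosome 4, with 1834 bp. Neighbouring H3K27ac peaks lay a median of 10.6 kb apart, centre to centre, and neighbouring H3K27me3 peaks 19.6 kb apart. No 2 peaks of the same mark had centres closer than 1.501 kb. MACS2, the second peak caller, gave 26956 H3K27ac and 24070 H3K27me3 peaks on the same chromosomes, with median widths of 990 and 499 bp over its whole lists. The widest MACS2 peaks spanned 21059 bp for H3K27ac and 16396 bp for H3K27me3.

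Most H3K27me3 peaks had an H3K27ac peak nearby, and about 1 in 5 shared bases with one. Of the 30183 Homer H3K27me3 peaks, 6062 shared at least 1 bp with an H3K27ac peak, which is 20.1% (19.6 to 20.5%). As a reference, the H3K27ac peaks of each chromosome were moved together along it by a random distance, 100 times. This keeps their number and spacing. It also lets them fall on stretches where no peak of either mark could be called, such as assembly gaps. The part of such stretches in the comparisons with the shifts, for peaks or for bins, was not tested. After these shifts a mean of 5.41% overlapped, with a range of 5.05 to 5.78%, so the observed share was 3.71 times the mean. The median distance to the nearest H3K27ac peak was 9.33 kb (9.10 to 9.64 kb) and 13.2 kb after the shifts, with a range of 12.5 to 13.7 kb. An H3K27ac peak lay within 10 kb of 51.3% of the H3K27me3 peaks and within 100 kb of 94.5%, against 43.4% and 92.7% after the shifts. The farthest H3K27me3 peak was 1164 kb from any H3K27ac peak.

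The largest departure from the shifts was in the overlapping peaks, with 6062 against a mean of 1634. Because the number of H3K27me3 peaks is fixed, more overlaps leave fewer peaks for every other class, so the other classes were also compared among the peaks without overlap. Of these 24121 peaks, 4.17% lay up to 1 kb from H3K27ac, below the lowest shift of 6.58%. The shares at 5 to 10 kb (16.0% against a mean of 14.8%), 10 to 20 kb (19.1% against 17.9%) and 20 to 50 kb (23.8% against 22.6%) lay above the highest shift. Beyond 100 kb the share was 6.86%, just below the lowest shift of 7.01%, and the shares at 1 to 5 kb and 50 to 100 kb were within the range of the shifts. With the overlapping peaks set aside, the median distance of the remaining 24121 H3K27me3 peaks was 14.8 kb, and that of the non-overlapping peaks after the shifts was also 14.8 kb, with a range of 14.0 to 15.3 kb. Against shifts of only 50 to 500 kb, which keep H3K27ac peaks in their own neighbourhood, this value was 13.04 kb (range 12.7 to 13.4 kb), below the observed 14.8 kb. Setting overlaps aside took out 6062 observed peaks but a mean of 1634 after the shifts, so the peaks left are unequal selections. How far this moves the values was not tested. The equal medians also hide the groups. Without overlaps the observed median was 35.7 kb on Z (whole-chromosome shifts 25.1 to 34.2 kb). It was 15.9 kb on chromosomes 1 to 10 (15.6 to 17.2 kb) and 7.44 kb on 11 to 28 (6.31 to 7.47 kb).

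**Figure D1:**
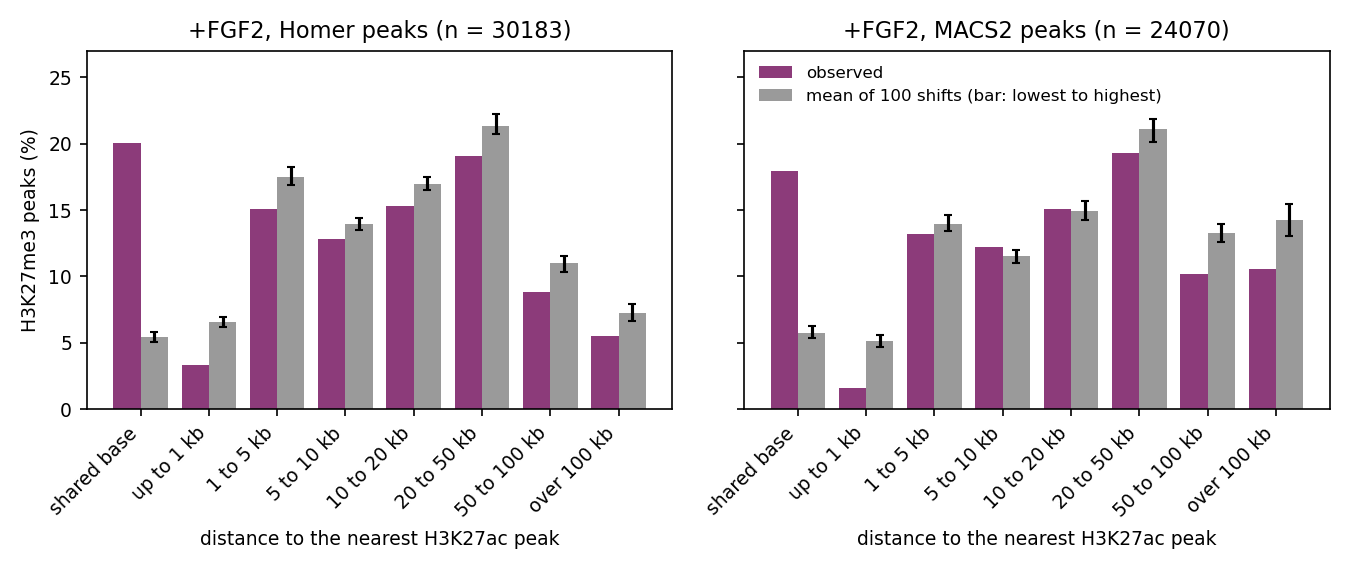
Share of H3K27me3 peaks (%) by distance to the nearest H3K27ac peak in the +FGF2 libraries, for Homer peaks (left) and MACS2 peaks (right). Purple bars are the observed peaks and grey bars the mean of 100 shifts with lines from the lowest to the highest shift. The observed share exceeds the shifts at a shared base (20.1% against 5.41% with Homer) and is below them at up to 1 kb with both callers.

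Overlapping peaks of the 2 marks sat almost on top of each other. In 3729 of the 6062 overlapping peaks (61.5%) the centres were under 100 bp apart, and in 4899 (80.8%) under 200 bp apart. Among the overlaps that remained after the shifts, 13.1% had centres under 100 bp apart. The number of H3K27me3 peaks with an H3K27ac centre at under 100 bp was 17.4 times the mean of the shifts. It was 5.31 times that mean at 100 to 200 bp and 1.29 times at 300 to 400 bp, and it fell to 0.285 times at 800 to 900 bp. Counted in bases, 3.81 Mb carried both marks, which is 16.8% of the H3K27me3 length and 14.2% of the H3K27ac length. The reverse share was similar, since 16.9% (16.5 to 17.3%) of the 35841 H3K27ac peaks overlapped an H3K27me3 peak, at a median distance of 9.85 kb.

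**Figure D2:**
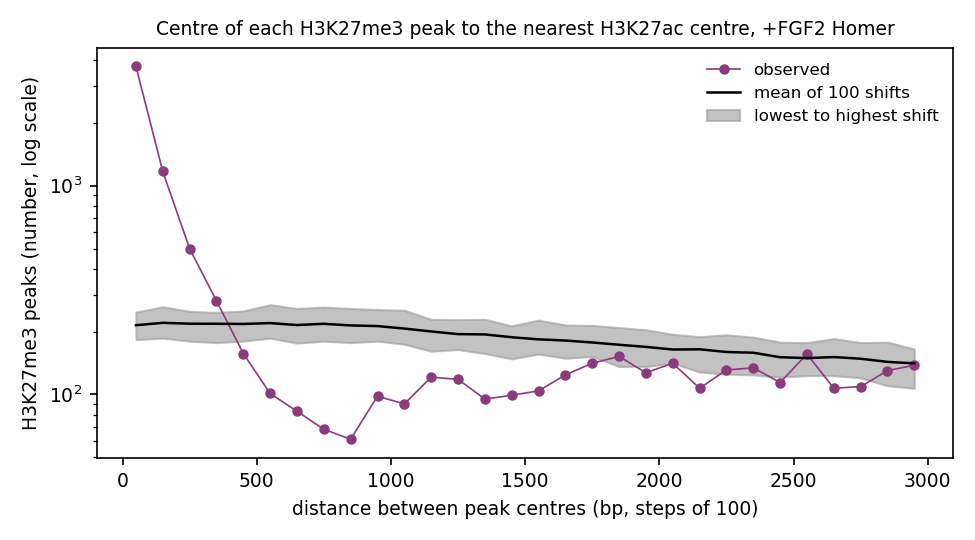
Number of +FGF2 Homer H3K27me3 peaks (log scale) by the distance from their centre to the nearest H3K27ac centre, in steps of 100 bp. Purple points are observed, the black line is the mean of 100 shifts and the grey band runs from the lowest to the highest shift. The observed number is 3729 under 100 bp, crosses the shifts between 300 and 500 bp and is below their mean from there to 2500 bp.

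The MACS2 lists gave a similar picture for the overlaps, with a somewhat lower share, but differed among the peaks without overlap. Of the 24070 MACS2 H3K27me3 peaks, 4314 or 17.9% (17.4 to 18.4%) shared a base with an H3K27ac peak, against a mean of 5.73% and a highest value of 6.28% after the shifts. The median distance was 12.9 kb and 18.9 kb after the shifts. Up to 1 kb there were 374 H3K27me3 peaks against a mean of 1235. Among the peaks without overlap this was 1.89%, against a lowest shift of 4.96%, and the share at 5 to 10 kb was 14.9%, above the highest shift of 12.8%. Unlike with Homer, the share at 1 to 5 kb (16.0%) lay above the highest shift of 15.5%. That at 50 to 100 kb (12.4%) lay below the lowest shift of 13.4%. The median distance of these peaks, 19.2 kb, was also below the shifts (mean 21.4 kb, range 20.1 to 22.8 kb). Against shifts of 50 to 500 kb it lay above (mean 17.1 kb, range 16.4 to 17.8 kb), as with Homer. The same limit holds here, since more overlaps were set aside in the observed list than in the shifts. Restricted to Homer peaks that share a base with a MACS2 peak of the same library, 1749 of 13818 H3K27me3 peaks (12.7%) overlapped H3K27ac, 3.90 times the mean of the shifts. The control libraries have fewer Homer peaks of both marks, with 31442 H3K27ac peaks against 35841 in +FGF2. In them, 2807 of 19571 Homer H3K27me3 peaks (14.3%, 13.9 to 14.8%) overlapped H3K27ac against a mean of 4.82% after the shifts, with a median distance of 13.2 kb. The overlap share was thus higher in the +FGF2 libraries, by more than the counting error. However, the lists differ in size, and 1 library per condition gives no spread between replicates against which to set this difference.

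The overlapping peaks differed between the marks in how often other lists held them. Of the overlapping H3K27me3 peaks, 54.5% (53.2 to 55.7%) were also called by MACS2, compared with 43.6% (43.0 to 44.2%) of the other H3K27me3 peaks. For H3K27ac the order was the opposite, with 46.1% (44.8 to 47.3%) of the overlapping and 60.9% (60.3 to 61.4%) of the other peaks called by MACS2. The control libraries showed the same contrast. A control H3K27ac peak was found at 18.2% of the overlapping and 38.8% of the other +FGF2 H3K27ac peaks, whereas a control H3K27me3 peak was found at 14.8% of the overlapping and 11.6% of the other +FGF2 H3K27me3 peaks. Thus the H3K27ac peaks that coincide with H3K27me3 were those less often recovered by the second caller and in the other condition. Peak heights are not part of the lists. Both +FGF2 marks were called against the same input library, and the part of an uneven input in the shared peaks was not tested.

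Which mark lay closest to an H3K27me3 peak depended on the overlapping peaks and on the caller. The nearest other peak was H3K27ac for 51.3% of the Homer H3K27me3 peaks, against a mean of 44.4% (range 43.7 to 45.4%) after the shifts. Homer H3K27me3 centres lay at least 1.502 kb apart, so every overlapping peak counts as nearest to H3K27ac. This excess therefore holds the overlaps a second time. Without the overlapping peaks the order turned, with 39.1% against a mean of 41.2% (range 40.6 to 42.1%). With MACS2 the 2 pairs of values were 46.4% against 39.7%, and 34.8% against 36.1%, the second of which fell just under the lowest shift of 34.9%. More peaks are set aside as overlapping in the observed lists than in the shifts. The values without them therefore compare unequal selections, and no avoidance is read from their order.

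The 2 marks were distributed differently over the chromosomes. H3K27ac was far denser on the small chromosomes, whereas H3K27me3 density differed little between small and large chromosomes. On chromosomes 11 to 28, Homer called 64.7 H3K27ac peaks per Mb, compared with 31.0 on chromosomes 1 to 10, a ratio of 2.09 (2.04 to 2.13). For H3K27me3 the densities were 30.8 and 30.6 peaks per Mb, a ratio of 1.01 (0.977 to 1.04). MACS2 gave ratios of 2.29 (2.23 to 2.35) for H3K27ac and 1.15 (1.11 to 1.19) for H3K27me3. Chromosome lengths are the end of the last peak in any list used, since no galGal4 sequence was used. The smallest chicken chromosomes, the microchromosomes, are known to be rich in genes.

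Across the 29 chromosomes, H3K27ac density fell with length (Spearman's rho -0.93, Pearson's r -0.66), while H3K27me3 density did so less with Homer (rho -0.40, r -0.10). With MACS2 the contrast was smaller, at rho -0.95 (r -0.66) for H3K27ac and rho -0.72 (r -0.33) for H3K27me3. These coefficients describe chromosomes that share 1 library, and unequal lengths make the small ones noisy. H3K27ac was densest on chromosome 26 with 115 peaks per Mb, followed by chromosomes 25 with 111 and 24 with 106. It was sparsest on chromosome Z with 19.1, chromosome 2 with 26.4 and chromosome 4 with 27.9 peaks per Mb. The H3K27me3 order was another one. Chromosome 27 with 47.8 peaks per Mb, chromosome 22 with 44.6 and chromosome 16, a fragment of 0.532 Mb with 21 peaks, with 39.4 were highest. Chromosomes 11 with 22.9, Z with 24.4 and 9 with 25.6 were lowest. The number of H3K27ac peaks per H3K27me3 peak was highest on chromosomes 25 (4.10), 26 (3.99) and 28 (3.43) and lowest on Z (0.782), 1 (0.796) and 2 (0.845). H3K27ac peaks outnumbered H3K27me3 peaks on 24 of the 29 chromosomes with Homer and on 25 with MACS2.

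**Figure D3:**
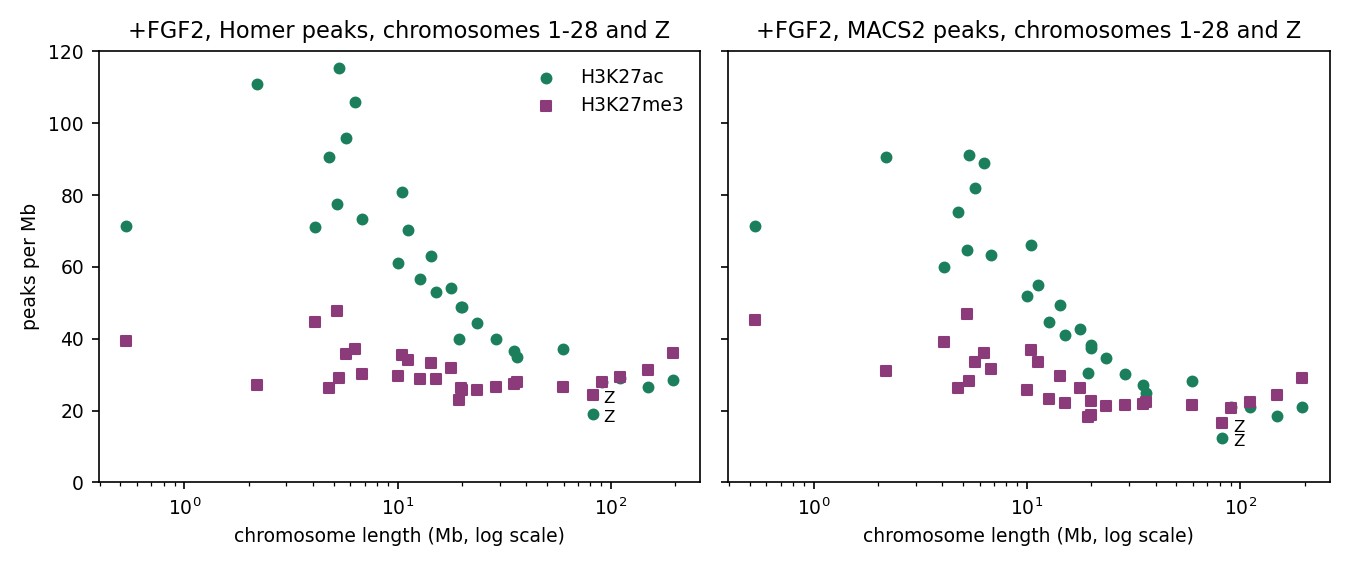
Peaks per Mb against chromosome length (Mb, log scale) for H3K27ac (green circles) and H3K27me3 (purple squares) in the +FGF2 libraries, Homer on the left and MACS2 on the right, with 1 point per chromosome and mark. H3K27ac reaches 115 peaks per Mb with Homer on a short chromosome, while H3K27me3 stays between 22.9 and 47.8, and both points of chromosome Z are labelled.

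The share of overlapping H3K27me3 peaks followed H3K27ac density. It ranged from 15.5% (14.0 to 17.1%) on chromosome Z to 45.8% (33.7 to 58.3%, 27 of 59 peaks) on chromosome 25, and its rank correlation with H3K27ac density over the 29 chromosomes was 0.91 (r 0.91). The shifts, which keep the number and spacing of the H3K27ac peaks, gave 2.79% on Z and 16.2% on chromosome 25. As a ratio to the mean of the shifts, the overlap ran the other way. It was 5.55 times that mean on Z, 4.06 times on chromosomes 1 to 10 and 2.80 times on chromosomes 11 to 28. That mean itself followed H3K27ac density (rank correlation 0.999), so the fall of the ratio may be in part built in. As a difference, the gap was smallest on Z, at 15.5% against 2.79%. It was wider on chromosomes 1 to 10 (18.7% against 4.60%) and widest on chromosomes 11 to 28 (27.9% against 9.94%). Within chromosomes 11 to 28, some single chromosomes, such as 22, had a smaller gap than Z. The observed share lay above the highest shift on 28 of the 29 chromosomes. The exception was chromosome 22, with 35 of 182 peaks or 19.2%, against a mean of 10.6% and a highest shift of 20.3%. With MACS2 the share lay above the highest shift on all 29.

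The genome was then cut into 10032 bins of 100 kb to ask how often the marks share a neighbourhood. Both marks were present in 7484 bins, or 74.6% (73.7 to 75.4%), H3K27me3 only in 1591 or 15.9% (15.2 to 16.6%), H3K27ac only in 669 or 6.67% (6.20 to 7.17%), and neither in 288 or 2.87%. After the shifts the means were 73.5% for both, 16.9% for H3K27me3 only, 7.77% for H3K27ac only and 1.77% for neither. The observed shares of both and neither lay above, and those with a single mark below, the whole range of the 100 shifts, but by about 1 percentage point each. With MACS2, 74.2% of the Homer bins with both marks kept their class. So did 63.5% of those with H3K27me3 only and 49.8% of those with H3K27ac only. Of the 669 bins with H3K27ac only, 245 held both marks with MACS2. Among the bins with a peak in any +FGF2 list, H3K27ac only made up 6.79%, with a mean of 6.42% (range 6.13 to 6.63%) after the shifts. This filter keeps every observed bin with H3K27ac only but drops empty bins that shifted H3K27ac peaks fall into. Nothing is therefore read from the order of these values. Of the 288 bins without a Homer peak, 186 held no MACS2 peak of the +FGF2 libraries and 98 also held no control Homer peak. Bins over assembly gaps cannot be told apart from bins without signal.

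Bins with few peaks of one mark also tended to hold few of the other, but the relation was weak. The rank correlation of the 2 counts over 10032 bins was 0.16 (r 0.12) and had a mean of 0.01 after the shifts, over bins that share 1 library per mark. It was 0.17 on chromosomes 1 to 10, 0.16 on chromosomes 11 to 28 and 0.01 on Z, the last within the shifts (-0.10 to 0.10). With MACS2 the rank correlation was 0.23 over all bins (mean 0.03 after the shifts). By group it was 0.23 on chromosomes 1 to 10, 0.26 on 11 to 28 and -0.06 on Z, the last again within the shifts (-0.14 to 0.10). With Homer, bins without H3K27ac held a mean of 2.36 H3K27me3 peaks (SD 1.94 over 1879 bins). The mean rose to 3.52 (SD 2.51 over 1110 bins) in bins with 7 to 10 H3K27ac peaks and was 3.26 (SD 2.37 over 679 bins) in bins with 11 or more. After the shifts it was between 2.98 and 3.10 in every class. The share of bins lacking H3K27me3 was 15.3% (13.8 to 17.0%) without H3K27ac and between 7.75 and 8.74% with 1 to 10 H3K27ac peaks. It was 11.05% (8.90 to 13.6%) with 11 or more, where the shifts gave 10.4%. With MACS2 this last share was 11.6%, against 16.7% after the shifts and 25.3% in bins without H3K27ac, so the upturn at high H3K27ac counts was a feature of the Homer lists.

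The small chromosomes held more bins with both marks and fewer with H3K27me3 only. On chromosomes 11 to 28, 83.1% (81.2 to 84.8%) of 1726 bins had both marks and 5.33% (4.37 to 6.49%) H3K27me3 only, compared with 74.2% and 17.0% of 7482 bins on chromosomes 1 to 10. On Z, 60.1% (56.7 to 63.4%) of 824 bins had both and 27.5% (24.61 to 30.7%) H3K27me3 only. No bin with H3K27me3 only was found on 6 of the 29 chromosomes. The shifts gave 82.3%, 73.2% and 58.3% for both marks in these 3 groups, so that most of the difference between them was also there after the shifts. The shares depended on the caller, most of all on Z. With MACS2, both marks were in 76.2% of bins on chromosomes 11 to 28, 59.4% on 1 to 10 and 36.4% on Z. H3K27me3 only was then in 6.43%, 23.5% and 34.0%. The labels give no sex for the pooled embryos, and the copy number of Z in the pool is not known.

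**Figure D4:**
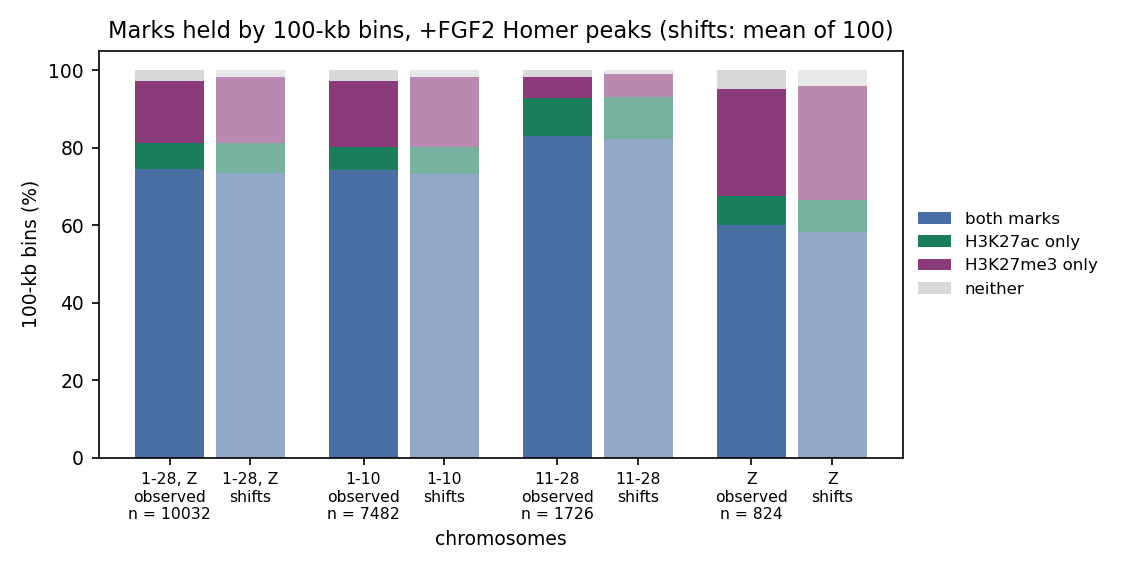
Share of 100-kb bins (%) holding both marks, H3K27ac only, H3K27me3 only or neither in the +FGF2 Homer lists, for all chromosomes used, chromosomes 1 to 10, 11 to 28 and Z. The left bar of each pair is observed and the paler right bar is the mean of 100 shifts. Bins with H3K27me3 only make up 27.5% on Z and 5.33% on chromosomes 11 to 28, and the 2 bars of each pair are close.

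The longest stretches of a single mark were all H3K27me3, and the longest were on Z. From 76.1 to 78.3 Mb of chromosome Z, 22 bins in a row held 107 H3K27me3 peaks and no H3K27ac peak. Another 18 bins, from 74.1 to 75.9 Mb of Z, held 94 H3K27me3 and no H3K27ac peaks. Together with the 2 bins between them, the span of 4.2 Mb (chrZ:74100001-78300000) carried 211 H3K27me3 peaks, 50.2 per Mb, and 2 H3K27ac peaks, 0.476 per Mb. The part of Z before it had 22.6 H3K27me3 and 19.9 H3K27ac peaks per Mb. MACS2 called 252 H3K27me3 and 5 H3K27ac peaks in the span, and the control Homer lists have 88 and 2 there. After the span, to the end of Z, Homer had 30.3 H3K27me3 and 22.2 H3K27ac peaks per Mb. In control, H3K27me3 had 21.0 peaks per Mb in the span, 12.0 before it and 19.9 after it, and H3K27ac had 0.476, 15.0 and 13.3. The span was picked for its runs without +FGF2 Homer H3K27ac, and MACS2 called peaks in the same library, so only the control is a separate one. In control the span was also low in H3K27ac, while its H3K27me3 density was close to that of the flank after it.

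The third longest run with H3K27me3 only, 9 bins on chromosome 4 (62.8 to 63.7 Mb), held 20 H3K27me3 peaks and no H3K27ac peak with either caller or in the control. In the shifts the longest run with H3K27me3 only had a mean of 15.0 bins and a range of 10 to 23, so that 22 bins was within their range. Runs of 5 or more such bins were fewer than in the shifts, 20 against a mean of 31.4 (range 23 to 40), and 3 of the 20 were on Z. With Homer, H3K27ac alone never covered more than 4 bins in a row. Those 4 were on chromosome 15 (0.2 to 0.6 Mb) with 41 H3K27ac peaks, and of the runs of 3 bins, the first by position were on chromosomes 5 (21.4 to 21.7 Mb) and 8 (from 12.7 Mb). The runs on chromosomes 15, 5 and 8 held 3, 3 and 0 H3K27me3 peaks with MACS2, and 3, 7 and 1 in control. In the shifts the longest such run had a mean of 7.64 bins and a range of 4 to 10.

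Bins with both marks formed runs of up to 65 bins, on chromosome 2 from its start to 6.5 Mb, with 389 H3K27ac and 370 H3K27me3 peaks. The next were 63 bins on chromosome 3 (104.2 to 110.5 Mb) and 61 bins on chromosome 5 (53.5 to 59.6 Mb). In the shifts the longest run with both marks had a mean of 57.5 bins and a range of 39 to 94, so 65 bins was within their range. Runs of 5 or more bins with both marks numbered 506, also within the shifts (mean 521.6, range 495 to 545). The longest runs with neither mark, 9 bins on chromosome 5 (46.8 to 47.7 Mb) and runs of 6 (135.1 to 135.7 Mb) and, first by position among its length, 5 bins (32.8 to 33.3 Mb) on chromosome 2, held no peak of any of the 6 lists compared.

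In the 3 densest bins of each mark by Homer, the other mark was represented by 0 to 5 peaks. The median over all 10032 bins was 3 H3K27me3 and 2 H3K27ac peaks. For either mark, the counts in these bins thus lay on both sides of its median, and no exclusion is read from them. The 3 bins richest in H3K27ac had 29 and 27 peaks on chromosome 14 (from 4.8 and 14.1 Mb) and 26 on chromosome 26 (from 2.0 Mb), beside 4, 5 and 0 H3K27me3 peaks. MACS2 called 9, 21 and 16 H3K27ac and 2, 5 and 2 H3K27me3 peaks in them. In control these bins held 25, 28 and 24 H3K27ac peaks. The bin richest in H3K27me3, on chromosome 13 from 1.1 Mb, had 20 H3K27me3 peaks and no H3K27ac peak with Homer, and 18 and 0 with MACS2. The next were neighbouring bins on chromosome 27, from 3.5 and 3.6 Mb, with 20 and 19 H3K27me3 and 1 and 5 H3K27ac peaks, and with MACS2 15 and 17 H3K27me3 and 1 and 3 H3K27ac peaks. All 3 were also rich in control, with 20, 20 and 26 H3K27me3 peaks, so these extremes were present in both conditions.

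Around the genes followed in the study, most bins held both marks, as did 74.6% of all bins. The loci were windows around 9 genes or gene pairs, read by eye from browser views. They lay in 13 bins, of which 11 had both marks and 2 had H3K27ac only. H3K27ac peaks outnumbered H3K27me3 peaks in 10 of the 13 bins with Homer and in 9 with MACS2, compared with 40.3% and 37.7% of all bins, but the genes were followed by the study partly for their H3K27ac, so nothing is read from this count. Spry1, a feedback inhibitor of FGF signalling, lay in a bin with 15 H3K27ac and 1 H3K27me3 peaks. At least as many H3K27ac peaks were found in 2.23% of bins, and MACS2 gave 12 and 2. The control held 0 H3K27ac and 2 H3K27me3 peaks in this bin. Spry2, a related inhibitor, had 7 H3K27ac and 0 H3K27me3 peaks with Homer, 8 and 1 with MACS2, and 3 and 1 in control.

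The window around Foxi3, a forkhead factor of the pre-placodal region needed for ear formation, spanned 2 bins. They held 23 and 9 H3K27ac peaks, and 8 and 2 H3K27me3 peaks. The first of these was high in both marks, with fewer H3K27ac peaks in 99.8% and fewer H3K27me3 peaks in 95.8% of all bins. In it 5 of the 8 H3K27me3 peaks overlapped H3K27ac, and in the second bin 1 of 2 did, beside 20.1% of all H3K27me3 peaks. With few peaks per bin, and many H3K27ac peaks in the first, nothing is read from such overlap counts at the loci. MACS2 gave 11 H3K27ac and 4 H3K27me3 peaks in the first bin. Hesx1, a homeobox repressor, had 4 H3K27ac and 0 H3K27me3 peaks, and MACS2 also called no H3K27me3 in its bin. Cxcl14, which encodes a chemokine, had 12 and 4, with 1 of the 4 H3K27me3 peaks overlapping H3K27ac. The window around Eya2, a co-activator in placodes, covered 3 bins with 7, 15 and 5 H3K27ac and 2, 4 and 2 H3K27me3 peaks. The first Eya2 bin depended on the caller, with 5 H3K27ac and 9 H3K27me3 peaks by MACS2. In control the Foxi3 bins held 6 and 5 H3K27ac and 6 and 5 H3K27me3 peaks. Hesx1 had 1 and 0 there, and Cxcl14 5 and 6. The Eya2 bins differed little, with 6, 12 and 5 H3K27ac and 3, 3 and 2 H3K27me3 peaks in control.

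H3K27me3 was ahead at 2 loci. Pax6, a regulator of lens and eye development, had 6 H3K27ac and 9 H3K27me3 peaks with Homer, and 5 and 6 with MACS2. Of its 9 H3K27me3 peaks 3 overlapped H3K27ac, and 97.6% of all bins had fewer H3K27me3 peaks. Gata3, a zinc finger transcription factor, had 4 and 3 H3K27ac and 8 and 6 H3K27me3 peaks in the 2 bins of its window. MACS2 gave 3 and 9 in the first Gata3 bin and 4 of each in the second. Dlx5/6, a homeobox pair of the neural plate border, was not of this kind, with 8 H3K27ac and 2 H3K27me3 peaks. Overlap with H3K27ac was found for 2 of 8 and 1 of 6 H3K27me3 peaks in the Gata3 bins and 0 of 2 at Dlx5/6. It was found for 1 of 2, 0 of 4 and 0 of 2 in the Eya2 bins and 0 of 1 at Spry1. In control Pax6 had 9 H3K27ac and 7 H3K27me3 peaks and Dlx5/6 had 9 and 3. The Gata3 bins had 5 and 9 H3K27ac and 8 and 3 H3K27me3 peaks there. The paper lists Pax6, Dlx5/6 and Gata3 as genes that OEPs normally lack and that FGF represses. From browser tracks it describes less H3K27ac and more H3K27me3 at them with FGF2, which is another measure than these counts.

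**Figure D5:**
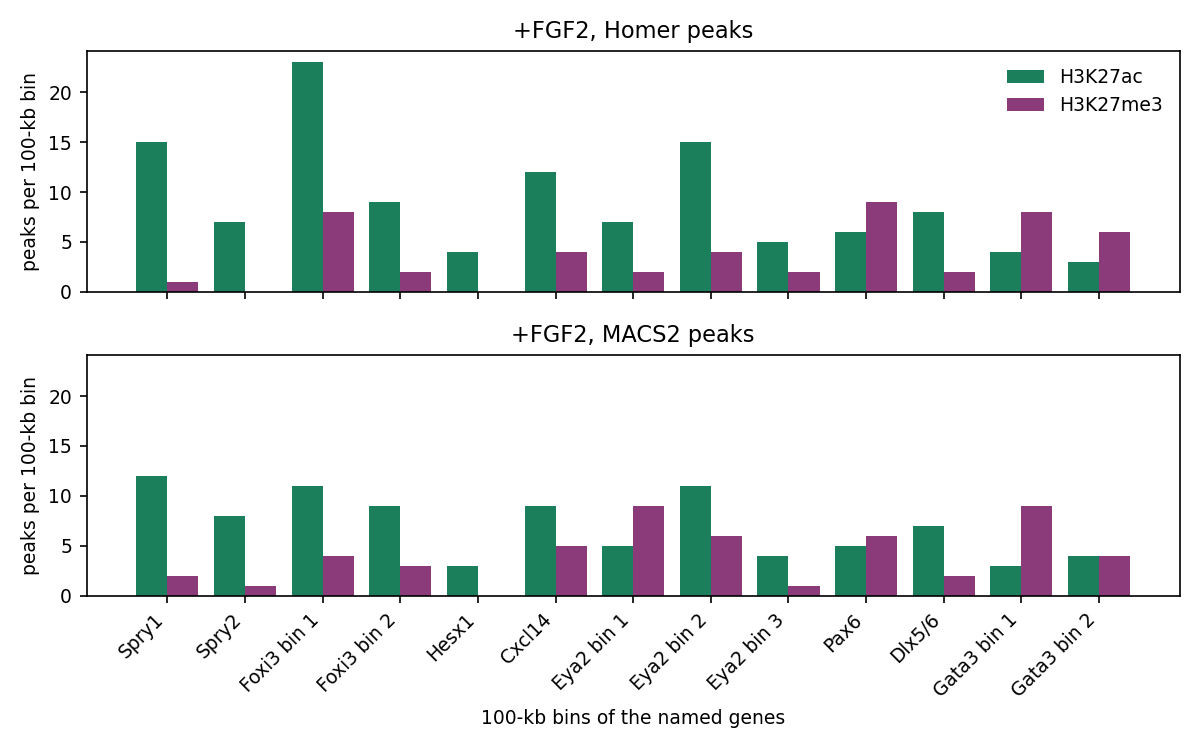
Number of H3K27ac (green) and H3K27me3 (purple) peaks in the 100-kb bins of the named genes in the +FGF2 libraries, Homer above and MACS2 below. H3K27me3 exceeds H3K27ac with both callers at Pax6 and in the first Gata3 bin, and in the first Eya2 bin only with MACS2.

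At the 5 cloned elements, H3K27ac was at or beside the element and H3K27me3 was kilobases away. Spry1 E and Foxi3 E2, whose primers are printed above, shared bases with an H3K27ac peak, and the nearest H3K27me3 peaks were 20.8 and 17.8 kb away. Hesx1 E had H3K27ac at 0.474 kb and H3K27me3 at 85.2 kb, or at 304.6 kb with MACS2. Foxi3 E1 (chr4:85595147-85595756) had H3K27ac at 0.376 kb and H3K27me3 at 10.3 kb. Cxcl14 E (chr13:14642196-14643846) had them at 0.034 and 17.2 kb. All 5 distances to H3K27me3 exceed the 9.85 kb that was the median for an H3K27ac peak, although the elements were cloned by the study as H3K27ac regions without H3K27me3, so the order is in part set by that choice. In control the nearest H3K27me3 peak was closer to Foxi3 E2, at 1.57 kb, to Spry1 E, at 4.22 kb, and to Cxcl14 E, at 11.3 kb. It was farther from Foxi3 E1, at 13.2 kb, and the same 85.2 kb from Hesx1 E.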

How the data were processed

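ChIP-seq for H3K27ac and H3K27me3 in 6 h +FGF2 explants was analysed. Per the labels and methods, the authors used Novoalign for mapping to galGal4 after trimming read starts, and uniquely mapped reads went into peak calling with Homer (1.5-fold over input) and MACS2. The deposited lists used here give positions only, without heights or read numbers. Depth is therefore unknown, and reads were not analysed here.

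Homer peaks were the main set. Distances run between nearest peak edges, and sharing 1 bp counts as overlap. Bins of 100 kb start at position 0, and a peak counts in each bin that holds a base of it. The reference was 100 circular shifts of H3K27ac along each chromosome, given as mean and range without p-value. Chromosome lengths are the end of the last peak. Control MACS2 lists were not used here, nor were the authors' enhancer lists. All chromosomes are summarised, with the 3 highest and lowest densities, the 3 richest bins and the 3 longest runs named. The 9 loci are those the study names for its ChIP-seq, with windows read by eye from browser views, and the 5 elements and primers come from its supplement. Loci, tests and lists were chosen with earlier results of these data known. The steps were tested on simulated peaks. Software versions were Python 3.11.15, with numpy 2.4.6 for intervals, scipy 1.17.1 for confidence limits and matplotlib 3.10.9 for plots. Alternatives covered caller, overlap rule, last H3K27ac entry, unplaced sequences, bin size, origin and minimum count, and local shifts.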

Additional observations from a re-analysis of the deposited data

How the results depend on the processing

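The overlap share stayed above the highest shift under every alternative for which shifts were run. It was 17.9% with MACS2, 12.7% for Homer peaks also called by MACS2, and 18.7% when 50% of the H3K27me3 peak had to be covered or when the H3K27ac centre had to lie inside the H3K27me3 peak. The median distance was 12.9 kb with MACS2, 22.01 kb for peaks of both callers, 10.1 kb between centres, 9.05 kb with unplaced sequences included and 8.79 kb without chromosome Z. Leaving out Z was chosen after seeing the data. Bins with both marks made up 60.4% with MACS2, 43.2% for peaks of both callers, 49.8% at 50 kb, 91.0% at 200 kb, 47.7% with at least 2 peaks of each mark, 76.0% among bins with a peak in any +FGF2 list and 75.9% without Z. H3K27me3 only was held by 21.4%, 23.3%, 23.4%, 7.11% and 25.4% under the first 5 of these and by 14.8% without Z. H3K27ac only was held by 10.9%, 18.8%, 15.1%, 1.25% and 14.74% under the first 5. Among bins with a peak in any +FGF2 list it was 6.79% (shifts 6.13 to 6.63%). That filter rests on the observed peaks and drops shifted ones, so this comparison is not read. At 200 kb the share with both marks lay within the range of the shifts (90.3 to 91.2%), so the small excess at 100 kb was not seen there. The density ratio of chromosomes 11 to 28 over 1 to 10 was 2.29 with MACS2 and 2.48 for peaks of both callers for H3K27ac, and 1.15 and 1.08 for H3K27me3. Against chromosomes 1 to 5 the H3K27ac ratio was 2.24. Leaving out the last H3K27ac entry and moving bins by 50 kb left the values within their counting interval. Shifts of 50 to 500 kb change only the reference, to an overlap of 5.89% and a median of 11.6 kb, and for peaks of both callers they put the 43.2% of bins with both marks inside their range (42.3 to 43.5%). No paired analysis was possible because there is 1 library per condition and mark. Bin size moved the share with both marks more than the use of MACS2 did, but asking for both callers moved it most. The effect of read depth, which is unknown here, was not tested.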

Other observations

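On unplaced sequences and linkage groups, outside the chromosomes described, the H3K27me3 overlap share was near that of the chromosomes and the H3K27ac share was higher. Of 2335 H3K27me3 peaks on 1780 such sequences, 446 or 19.1% (17.6 to 20.7%) overlapped H3K27ac, and of 1564 H3K27ac peaks, 28.5% (26.3 to 30.8%) overlapped H3K27me3, compared with 20.1% and 16.9% on chromosomes 1 to 28 and Z.

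The order of entries in the Homer lists, which the sources used here do not explain, went with overlap in opposite directions for the 2 marks. From the first to the last 10% of entries of the H3K27me3 list, overlap with H3K27ac went from 30.2% to 11.4% and the share also called by MACS2 from 81.6% to 7.85%. From the first to the last 10% of the H3K27ac list, overlap with H3K27me3 went from 7.60% to 21.8%, with 24.2% in the 10% before the last, and the share called by MACS2 from 88.5% to 12.4%. In the first 10% of the H3K27me3 list 64.3% of entries were on chromosomes 1 to 28 and Z, against 92.7% or more in each later 10%. What the order stands for was not tested.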
